A study of Mus musculus with 18 samples.

Results

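This account covers the sterol and fatty acid synthesis genes of mouse cumulus cells, a list of 35 genes chosen by name: the enzymes from acetyl-CoA to cholesterol, the proteins that control the sterol regulatory element-binding proteins (SREBPs), 1 sterol carrier, and the enzymes that make, elongate and desaturate fatty acids. Members were found as probe sets whose platform annotation gives a single gene symbol that is on the list, under its current or a former name. Of the 35 genes, 34 had such a probe set, on 81 of the 45101 probe sets in the table, and Acat2 had none. All 34 passed the filter on dim genes and stand among the 12246 genes tested, as 18 sterol steps, 5 SREBP regulators, the carrier Stard4 and 10 fatty acid enzymes. The rule that picks the probe sets uses no measured value.

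The study cultured cumulus cells of female mice, taken from antral follicles, with and without oocytes and with and without estrogen, and measured their messenger RNA on 18 arrays, 1 per sample, after 2 rounds of amplification of total RNA. The 6 groups have 3 arrays each. COC are intact cumulus-oocyte complexes in culture, OOX are complexes from which the oocyte was taken out, and OOX + oocytes are oocyte-free complexes to which oocytes were added in culture. The other 3 groups are the same preparations cultured with estrogen, written E2 in the labels. They are called intact complexes, oocyte-free complexes and cocultures here. The labels give neither the dose and the time in culture nor the age and strain of the mice. They do not state whether the 3 samples of each group are separate animals or cultures. P-values therefore cover no more than the variation among these arrays, part or all of which may be technical.

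Cholesterol is built from acetyl-CoA through mevalonate, isoprenoid diphosphates, squalene and lanosterol. SREBPs are transcription factors held in the endoplasmic reticulum: when sterols are scarce the escort protein Scap carries them to the Golgi, where they are cut and released to switch on genes of sterol and fatty acid synthesis, and when sterols are plentiful the Insig proteins hold Scap back. In the mouse ovary, cumulus cells are known to make cholesterol for the oocyte, which makes little itself, and factors from the oocyte are known to promote this activity.

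The promoter windows below, from RefSeq with the build GRCm38.p6, run from 250 bases before the gene's start to 50 bases after it and are written in the direction of the gene. They are shown because most of these genes moved together, so that a reader can see what short motifs the windows share. Idi1 (chr13:8885356-8885655, plus strand) and Msmo1 (chr8:64733529-64733828, minus strand) are sterol enzymes with large falls, Insig1 (chr5:28071162-28071461, plus strand) is the 1 SREBP regulator that fell, and Acss2 (chr2:155517793-155518092, plus strand) and Fads2 (chr19:10101454-10101753, minus strand) are fatty acid enzymes. Hmgcs1 (chr13:119690101-119690400, plus strand) was added after the search because it alone held TCACNCCAC. Capitals mark CCAAT, TCACNCCAC and CACGTG on either strand.
Idi1: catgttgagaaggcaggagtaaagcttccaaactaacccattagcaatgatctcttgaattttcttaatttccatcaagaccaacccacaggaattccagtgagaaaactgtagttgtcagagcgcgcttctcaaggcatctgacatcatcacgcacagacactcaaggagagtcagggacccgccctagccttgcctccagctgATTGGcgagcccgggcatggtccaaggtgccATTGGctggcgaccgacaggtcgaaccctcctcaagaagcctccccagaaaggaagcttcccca
Msmo1: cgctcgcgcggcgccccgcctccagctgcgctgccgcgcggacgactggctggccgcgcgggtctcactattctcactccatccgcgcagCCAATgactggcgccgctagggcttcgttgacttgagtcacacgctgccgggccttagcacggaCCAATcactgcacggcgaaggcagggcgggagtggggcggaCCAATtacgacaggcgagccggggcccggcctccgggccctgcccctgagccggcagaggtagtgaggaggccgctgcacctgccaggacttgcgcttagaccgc
Insig1: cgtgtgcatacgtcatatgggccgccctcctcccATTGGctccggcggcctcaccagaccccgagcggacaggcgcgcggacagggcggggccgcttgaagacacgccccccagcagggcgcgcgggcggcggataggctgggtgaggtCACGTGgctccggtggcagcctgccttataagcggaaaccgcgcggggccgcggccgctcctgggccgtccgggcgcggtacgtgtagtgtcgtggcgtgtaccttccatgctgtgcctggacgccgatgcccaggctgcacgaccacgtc
Acss2: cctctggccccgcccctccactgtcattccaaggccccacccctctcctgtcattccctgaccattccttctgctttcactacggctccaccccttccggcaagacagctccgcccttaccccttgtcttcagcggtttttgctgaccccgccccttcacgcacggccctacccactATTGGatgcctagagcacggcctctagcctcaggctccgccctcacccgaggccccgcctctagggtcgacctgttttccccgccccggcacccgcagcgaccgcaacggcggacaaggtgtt
Fads2: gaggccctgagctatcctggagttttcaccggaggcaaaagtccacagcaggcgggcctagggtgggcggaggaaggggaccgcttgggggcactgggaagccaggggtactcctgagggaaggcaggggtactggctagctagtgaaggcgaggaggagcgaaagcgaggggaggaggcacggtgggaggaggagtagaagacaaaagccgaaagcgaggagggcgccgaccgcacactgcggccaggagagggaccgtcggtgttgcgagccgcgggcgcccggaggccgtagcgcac
Hmgcs1: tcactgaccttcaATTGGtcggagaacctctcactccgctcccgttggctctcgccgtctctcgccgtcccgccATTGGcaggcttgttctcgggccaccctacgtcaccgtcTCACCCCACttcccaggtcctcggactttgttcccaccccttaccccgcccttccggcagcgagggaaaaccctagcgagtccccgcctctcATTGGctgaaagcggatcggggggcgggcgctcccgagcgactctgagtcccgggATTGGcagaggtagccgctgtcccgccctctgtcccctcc
CCAAT, the core that the factor NF-Y reads, stood in the windows of 23 of the 27 members that have one in the table, against 41.1% of 27025 genes. All 15 sterol steps with a window held it, 10 of them at least 2 times in 1 window, against 13.3% of all genes. It stood in 4 of 5 SREBP regulators and in 4 of 7 fatty acid enzymes, and the Fads2 window printed above has none. TCACNCCAC, 1 written form of the sterol regulatory element, was found in Hmgcs1 alone (1.44% of all genes), and CACGTG in 6 of 27 members (8.09%), among them Insig1. GGGCGG, the core that Sp1 reads, was found in 21 of 27 (38.2%). Of the 9 members with a window that were not among the called genes of oocyte removal without estrogen, 7 also held CCAAT, Srebf1 and Srebf2 among them. Both strands were searched, a gene with several windows counted by its best one, and no 2 different motifs shared bases in a member's window. Fdft1, Scd1, Stard4, Fads1, Scd2, Fdps and Sqle had no window.

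On the whole table, values are log2 expression values per probe set, and each gene is given by its brightest probe set. Array medians lay between 5.51 and 5.71. The third oocyte-free array without estrogen was the outlying one: its interquartile range was 2.54, where the remaining arrays had 2.70 to 3.06, and it correlated with its own group at 0.967 at best. The array titled E2 OOX, replicate 1, carries source and treatment labels without estrogen, and the title was followed. By the number that ends the array's name, of which the labels give no meaning, the arrays fall into 3 series of 13, 2 and 3. All 3 oocyte-free arrays without estrogen lie outside series 1, which holds all intact complexes. Of 11 granulosa and cumulus markers, Foxl2 (10.24 to 11.74) and Inha (11.97 to 13.61) were above the array median on all 18 arrays. The oocyte genes were mixed: Gdf9 was above it on 18 arrays (6.61 to 7.19), Ooep on 13 and Bcl2l10 on 12, but Zp3 on 1 and Bmp15, Zp2 and Oosp1 on 0. The endothelial genes Pecam1 and Cdh5 and the leukocyte gene Ptprc were above it on 0 arrays.

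Removal of the oocyte lowered most sterol and fatty acid synthesis genes. Without estrogen, 23 of the 34 members fell and 0 rose, while 38.7% of all tested genes were called, 18.0% higher and 20.7% lower (limma, Benjamini-Hochberg adjusted p under 0.05). With estrogen 26 of 34 fell and 0 rose, with 30.2% of all tested genes called, 12.9% higher and 17.3% lower. The median member differed by -1.46 on the log2 scale without and -1.64 with estrogen, against 0.01 and -0.05 over all tested genes. Oocyte-free and intact arrays did not overlap in 25 and 30 of 34 members, against 45.8% and 44.4% of all tested genes. In total, 22 members fell in both comparisons. The share of all tested genes that fell in both was not counted, so this number is not set against a background. In these bulk samples, fewer cells of a type and less RNA per cell cannot be told apart.

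The roles differed in how many members fell, beside 20.7% of all tested genes lower without and 17.3% with estrogen. Of 18 sterol steps, 16 fell without and 16 with estrogen, with median differences of -1.75 and -2.45. Of the 5 SREBP regulators only Insig1 fell, in both, and the medians were 0.08 and -0.50. That count is near the share of all tested genes and is not read as a result about the role. Of 10 fatty acid enzymes, 5 fell without and 8 with estrogen, with medians of -0.50 and -1.002. With the mean of all probe sets of a gene, the last median was -0.59. These are counts over lists of unequal size, and the difference between roles was not tested.

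**Figure D1:**
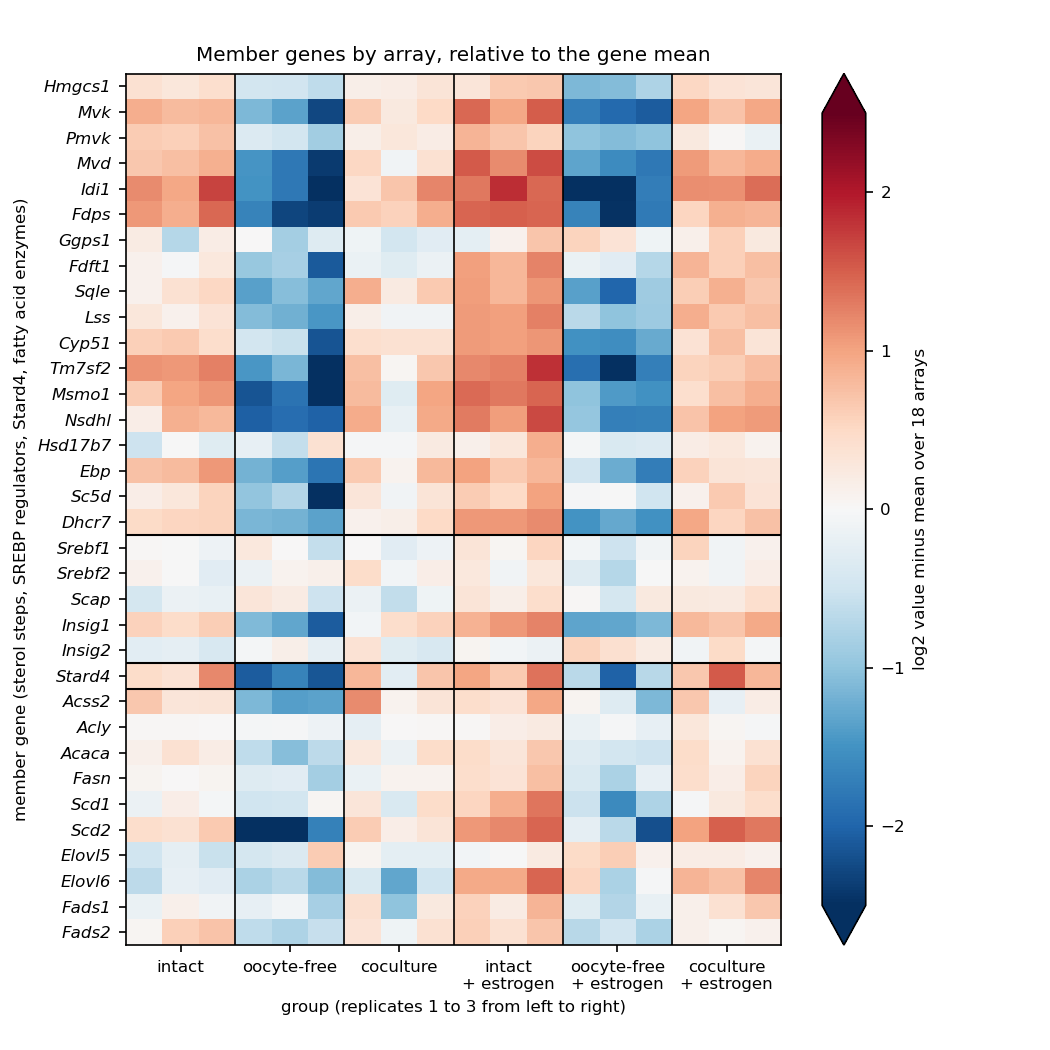
Each cell is 1 array's log2 value of a member gene minus that gene's mean over the 18 arrays, with colours limited at the ends of the scale; columns are the 3 replicates of each of the 6 groups and rows are the 34 members, with lines between sterol steps, SREBP regulators, Stard4 and fatty acid enzymes. Most sterol rows are blue in both oocyte-free groups and red in both groups of intact complexes. The rows of Srebf1, Srebf2, Scap and Insig2 show smaller differences between groups, none of them called.

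Among the sterol steps, the isomerase gene Idi1, which sets the balance of the isoprenoid building blocks, had the largest difference. Its log2 values were 8.66, 8.43 and 9.16 in intact complexes, 5.97, 5.69 and 4.09 in oocyte-free complexes and 7.81, 8.17 and 8.70 in cocultures. With estrogen, Idi1 was at 8.79, 9.31 and 8.91 in intact complexes, 4.47, 4.47 and 5.74 in oocyte-free complexes and 8.64, 8.61 and 8.87 in cocultures. All 6 oocyte-free arrays lay below all 12 arrays with oocytes, and the oocyte-free arrays spread most. Idi1 changed by -3.50 without estrogen (SE 0.406, n = 3 arrays per group, limma adjusted p = 3e-06), 11.3-fold lower, and by -4.11 with estrogen (adjusted p = 5.54e-07). Its other tested probe set gave -2.68 without estrogen.

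Fdps makes farnesyl diphosphate, the last shared precursor of sterols and prenyl groups. Its values were 9.35, 9.18 and 9.70 in intact complexes, 6.61, 5.97 and 5.90 in oocyte-free complexes and 8.93, 8.85 and 9.19 in cocultures. With estrogen, Fdps was at 9.73, 9.76 and 9.72 in intact complexes, 6.60, 5.81 and 6.50 in oocyte-free complexes and 8.81, 9.16 and 9.13 in cocultures. The oocyte-free groups again did not overlap any other group. Fdps changed by -3.25 (SE 0.218, limma adjusted p = 4.88e-09) without and -3.43 (adjusted p = 3.39e-09) with estrogen, which are 9.51-fold and 10.8-fold lower.

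Msmo1, formerly Sc4mol, encodes the monooxygenase that starts removal of methyl groups after lanosterol. Its values were 8.52, 8.86 and 8.99 in intact complexes, 5.72, 6.03 and 5.36 in oocyte-free complexes and 8.68, 7.59 and 8.87 in cocultures. With estrogen, Msmo1 was at 9.29, 9.21 and 9.33 in intact complexes, 6.88, 6.47 and 6.37 in oocyte-free complexes and 8.30, 8.64 and 8.79 in cocultures. Coculture replicate 2 without estrogen was the lowest array with oocytes, yet lay above every oocyte-free array. Msmo1 fell 8.50-fold without and 6.51-fold with estrogen (limma adjusted p = 9.45e-08 and 5.54e-07). A second, dimmer probe set gave -1.15 without estrogen and was not called there.

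Most other steps fell as well. In the mevalonate part, Mvk (mevalonate kinase) changed by -2.42 without and -3.22 with estrogen and Mvd, the decarboxylase, by -2.65 and -3.00. Hmgcs1, the synthase at the entry of this part, changed by -0.88 and -1.54, and Pmvk (phosphomevalonate kinase) by -1.21 and -1.74. From squalene to lanosterol, Fdft1 (squalene synthase) changed by -1.41 and -1.41, Sqle (squalene epoxidase) by -1.57 and -2.40, and Lss (lanosterol synthase) by -1.50 and -1.98. After lanosterol, the differences of Cyp51, Tm7sf2, Nsdhl, Ebp and Dhcr7, enzymes of the later sterol steps, ran from -1.62 (Cyp51) to -2.85 (Tm7sf2) without estrogen. With estrogen they ran from -1.99 (Ebp) to -3.46 (Tm7sf2). Each of these members was called in both comparisons and its groups did not overlap. Cyp51 replicate 3 of the oocyte-free group without estrogen was at 5.40 against 7.11 and 7.01, and the other tested Cyp51 probe sets gave -3.19, which was called, and -0.48, which was not.

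The sterol steps that were not called in both comparisons were Ggps1, Hsd17b7 and Sc5d. Ggps1, which makes geranylgeranyl diphosphate and so stands on a branch away from sterols, differed by -0.28 (95% interval -0.87 to 0.32) without and 0.08 (-0.52 to 0.67) with estrogen. Its probe sets disagreed: 1 of the other 3 gave -1.01 without and -0.74 with estrogen and was called in both. Hsd17b7, a sterol ketoreductase that also acts on estrone, differed by 0.14 without and fell by 0.70 with estrogen (limma adjusted p = 0.0256). That call was lost under 4 of 31 other settings. Its other tested probe sets gave 0.16 and -0.69 without estrogen, neither called, and -0.95 and -1.12 with it, both called. Sc5d, a late desaturase, fell by 1.75 without estrogen and differed by -0.88 with it (adjusted p = 0.0522), which passed the threshold under 12 of 31 other settings; it has a second probe set, which gave -0.04 without estrogen. The difference between the 2 removals was not called for any of these 3 genes.

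**Figure D2:**
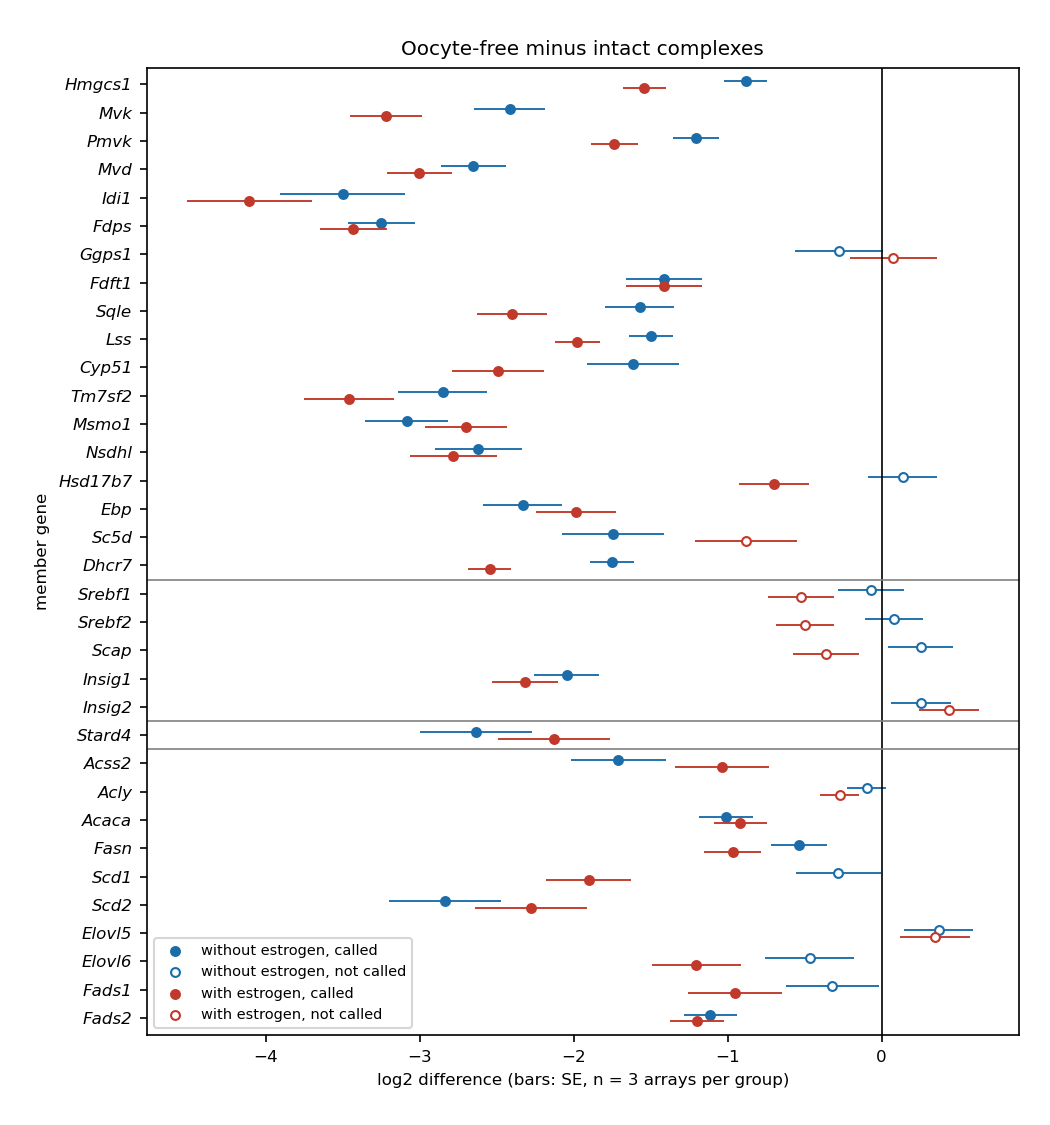
Points are the log2 difference between oocyte-free and intact complexes for each of the 34 members, without estrogen in blue and with estrogen in red, filled where called; bars are the SE of the fit, with 3 arrays per group. Sterol steps lie between -4.11 and 0.14, with Idi1, Fdps and Tm7sf2 far to the left. Of the 5 SREBP regulators, 4 have open points, between -0.52 (Srebf1 with estrogen) and 0.44 (Insig2 with estrogen).

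Insig1, which holds the SREBP escort in the endoplasmic reticulum and is itself a known SREBP target, was the SREBP regulator that changed. Its values were 9.11, 9.01 and 9.16 in intact complexes, 7.43, 7.25 and 6.46 in oocyte-free complexes and 8.48, 8.98 and 9.11 in cocultures. With estrogen, Insig1 was at 9.41, 9.62 and 9.79 in intact complexes, 7.22, 7.24 and 7.41 in oocyte-free complexes and 9.35, 9.24 and 9.48 in cocultures. No oocyte-free array reached any array with oocytes. Insig1 changed by -2.05 (SE 0.212, limma adjusted p = 7.58e-07) without and -2.32 (adjusted p = 2.31e-07) with estrogen, 4.13-fold and 4.98-fold lower.

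Srebf2 encodes the SREBP best known for sterol genes. Its values were 7.86, 7.74 and 7.46 in intact complexes, 7.60, 7.84 and 7.87 in oocyte-free complexes and 8.20, 7.68 and 7.91 in cocultures. With estrogen, Srebf2 was at 8.02, 7.66 and 8.03 in intact complexes, 7.42, 7.04 and 7.75 in oocyte-free complexes and 7.84, 7.67 and 7.92 in cocultures. The groups overlapped in both removals, with differences of 0.08 (95% interval -0.31 to 0.48) and -0.50 (-0.90 to -0.10, limma adjusted p = 0.0526). The second of these passed the threshold under 10 of 31 other settings.

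Srebf1 encodes the SREBP best known for fatty acid genes. Its values were 8.73, 8.70 and 8.58 in intact complexes, 8.98, 8.71 and 8.11 in oocyte-free complexes and 8.72, 8.43 and 8.59 in cocultures. With estrogen, Srebf1 was at 9.04, 8.75 and 9.25 in intact complexes, 8.64, 8.20 and 8.63 in oocyte-free complexes and 9.27, 8.63 and 8.81 in cocultures. The differences on removal were -0.07 (95% interval -0.52 to 0.38) and -0.52 (-0.98 to -0.07), neither called, and the groups overlapped without estrogen only. These are RNA values and say nothing of how much SREBP protein was cut and active.

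Scap, the SREBP escort, had log2 values of 9.58, 9.86 and 9.83 in intact complexes, 10.32, 10.21 and 9.50 in oocyte-free complexes and 9.86, 9.39 and 9.90 in cocultures. With estrogen, Scap was at 10.33, 10.16 and 10.46 in intact complexes, 10.04, 9.57 and 10.25 in oocyte-free complexes and 10.26, 10.24 and 10.44 in cocultures. Without estrogen all 3 of its groups overlapped. Insig2, the second anchor protein, had 8.18, 8.21 and 8.03 in intact complexes, 8.39, 8.58 and 8.21 in oocyte-free complexes and 8.80, 8.14 and 8.04 in cocultures. With estrogen, Insig2 was at 8.50, 8.37 and 8.29 in intact complexes, 8.99, 8.84 and 8.64 in oocyte-free complexes and 8.35, 8.91 and 8.39 in cocultures. Its oocyte-free arrays with estrogen lay above the intact ones. Neither gene was called in any of the 11 comparisons. On removal Scap differed by 0.25 and -0.36 and Insig2 by 0.25 and 0.44, so both lay above 0 without estrogen and only Insig2 did with it. With the array series as a term, removal with estrogen called Srebf1 (-0.63), Srebf2 (-0.56) and Scap (-0.49) lower, so the call for these 3 genes with estrogen changed with that setting.

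Stard4, a cytosolic protein that carries cholesterol between membranes, moved with the sterol steps. Its values were 8.53, 8.44 and 9.27 in intact complexes, 5.99, 6.40 and 5.94 in oocyte-free complexes and 8.91, 7.81 and 8.77 in cocultures. With estrogen, Stard4 was at 9.07, 8.73 and 9.43 in intact complexes, 7.41, 6.05 and 7.38 in oocyte-free complexes and 8.75, 9.62 and 8.91 in cocultures. Oocyte-free arrays lay below all others. Stard4 fell 6.22-fold without and 4.38-fold with estrogen (limma adjusted p = 1.96e-05 and 0.000220).

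The fatty acid enzymes were less uniform. Scd2, a stearoyl-CoA desaturase that makes monounsaturated fatty acids, had values of 12.30, 12.24 and 12.51 in intact complexes, 9.12, 9.25 and 10.17 in oocyte-free complexes and 12.48, 12.01 and 12.17 in cocultures. With estrogen, Scd2 was at 12.93, 13.05 and 13.30 in intact complexes, 11.62, 11.17 and 9.66 in oocyte-free complexes and 12.86, 13.34 and 13.18 in cocultures. No oocyte-free array overlapped an array with oocytes, but replicate 3 stood away from the other pair in each oocyte-free group, above it without and below it with estrogen. Scd2 changed by -2.84 (SE 0.362, limma adjusted p = 8.49e-06) without and -2.28 (adjusted p = 0.000111) with estrogen, 7.14-fold and 4.85-fold lower.

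Acss2, which makes cytosolic acetyl-CoA from acetate, had 7.17, 6.79 and 6.81 in intact complexes, 5.37, 5.11 and 5.16 in oocyte-free complexes and 7.67, 6.58 and 6.81 in cocultures. With estrogen it had 6.93, 6.83 and 7.46 in intact complexes, 6.57, 6.17 and 5.37 in oocyte-free complexes and 7.17, 6.29 and 6.68 in cocultures. The groups without estrogen were well apart, while 1 oocyte-free array with estrogen reached the range of the cocultures. Acss2 fell by 1.71 without and by 1.04 with estrogen (limma adjusted p = 0.000267 and 0.0155), the second a call lost under 3 of 31 other settings. With a term for array series the first difference was -0.87 (adjusted p = 0.0964).

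Fads2, the first desaturase of polyunsaturated fatty acids, had 6.80, 7.34 and 7.45 in intact complexes, 6.10, 5.98 and 6.17 in oocyte-free complexes and 7.08, 6.64 and 7.12 in cocultures. With estrogen, Fads2 was at 7.34, 7.12 and 7.43 in intact complexes, 6.06, 6.27 and 5.96 in oocyte-free complexes and 6.88, 6.79 and 6.86 in cocultures. It fell by 1.11 without and by 1.20 with estrogen (limma adjusted p = 7.05e-05 and 4.32e-05), and its 3 tested probe sets gave -1.11 to -1.20 without estrogen. Acaca (acetyl-CoA carboxylase) fell by 1.01 and by 0.92. Fasn (fatty acid synthase) fell by 0.54 and by 0.97, the first a call lost under 7 of 30 other settings. Without oocyte-free replicate 3 and the array with disagreeing labels, Fasn differed by -0.35 (limma adjusted p = 0.144).

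Elovl6, an elongase of saturated fatty acids, Fads1, the desaturase that follows Fads2, and Scd1, another stearoyl-CoA desaturase, were called lower with estrogen alone on the probe sets used. Their differences were -0.47, -0.32 and -0.28 without and -1.20, -0.95 and -1.90 with estrogen. A second Scd1 probe set gave -1.23 without estrogen and was called. The Fads1 call was lost under 3 of 31 other settings, and a second Fads1 probe set gave -0.25 with estrogen and was not called. The difference between both removals was called for Scd1 but not for Elovl6 (limma adjusted p = 0.462) or Fads1 (adjusted p = 0.583). Acly, which makes acetyl-CoA from citrate, and Elovl5, an elongase of polyunsaturated fatty acids, were called in no comparison. On removal Acly differed by -0.10 and -0.27 and Elovl5 by 0.37 and 0.35. With the array series as a term Elovl5 was called higher in both, and a second Acly probe set gave -0.46 without and -0.73 with estrogen and was called in both.

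Marker genes moved with oocyte removal as well. The mean of the 11 granulosa and cumulus markers lay at 10.76 to 10.91 in intact and 9.81 to 9.97 in oocyte-free complexes without estrogen, and at 11.31 to 11.51 and 10.16 to 10.50 with estrogen. Without estrogen 6 of the 11 fell, among them Hsd17b1 (-4.24) and Fst (-3.31), and 2 rose. The 2 were Foxl2, from a mean of 10.60 in intact to 11.63 in oocyte-free complexes, and Amhr2, from 11.51 to 12.08. The mean of 6 theca and stroma genes was 4.69 to 4.81 in intact and 5.52 to 5.77 in oocyte-free complexes without estrogen, where Dcn rose by 4.48 and Pdgfra differed by 0.08. Of 15 oocyte genes, 6 were tested and 1 fell, Bcl2l10 (-3.91). The part of these shifts in the members' differences was not tested.

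Most sterol genes rose where oocytes were put back. Against oocyte-free complexes, cocultures had 23 of 34 members higher and 0 lower without estrogen (33.2% of all tested genes called, 19.8% higher and 13.4% lower). With estrogen they had 23 higher and 0 lower (24.6% called, 14.2% higher and 10.4% lower). With each array centred on its median, the split over all tested genes went from 2425 higher and 1638 lower to 2046 and 2192 without estrogen, and from 1741 and 1270 to 1506 and 1682 with it. Their arrays did not overlap those of oocyte-free complexes in 23 and 26 of 34 members, against 38.3% and 38.0% of all tested genes. The sterol steps rose in 16 of 18 and 15 of 18 members, with median differences of 1.72 and 1.96. Insig1 rose by 1.81 and 2.07, and the other 4 regulators were not called. Stard4 rose by 2.39 and 2.15. Of 10 fatty acid enzymes 5 rose without and 6 with estrogen, with medians of 0.46 and 0.77.

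Large rises were those of Idi1 (7.87-fold without and 14.1-fold with estrogen), Fdps (7.11-fold and 6.63-fold) and, without estrogen, Scd2 (6.53-fold). Their limma adjusted p-values lay between 2.9e-08 and 2.25e-05. Acss2 rose 3.50-fold without estrogen and differed by 0.68 with it (adjusted p = 0.123). The rise of Fasn without estrogen, 0.49 (adjusted p = 0.0489), was lost under 20 of 30 other settings, and that of Acaca under 1. Removal and addition share the oocyte-free arrays, so the count of 21 members that fell in both removals and rose in both additions is not independent support for either. The share of all tested genes with that joint pattern was not counted. Arrays of series 2 allow 1 comparison within a series without estrogen, of 1 array against 1. Coculture replicate 2 was above oocyte-free replicate 3 in 16 of 18 sterol steps, by a median of 1.88. That oocyte-free array was the outlying one and had the lowest array weight, 0.148, and the coculture array had 0.383. All tested genes were not compared in this way. Within series 1, the sterol steps with estrogen had a median of 1.96 on addition (3 arrays against 2) and -2.55 on removal (2 against 3). No series holds both groups of the removal without estrogen; with the series as a term, 22 members were lower and 1, Elovl5, was higher.

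**Figure D3:**
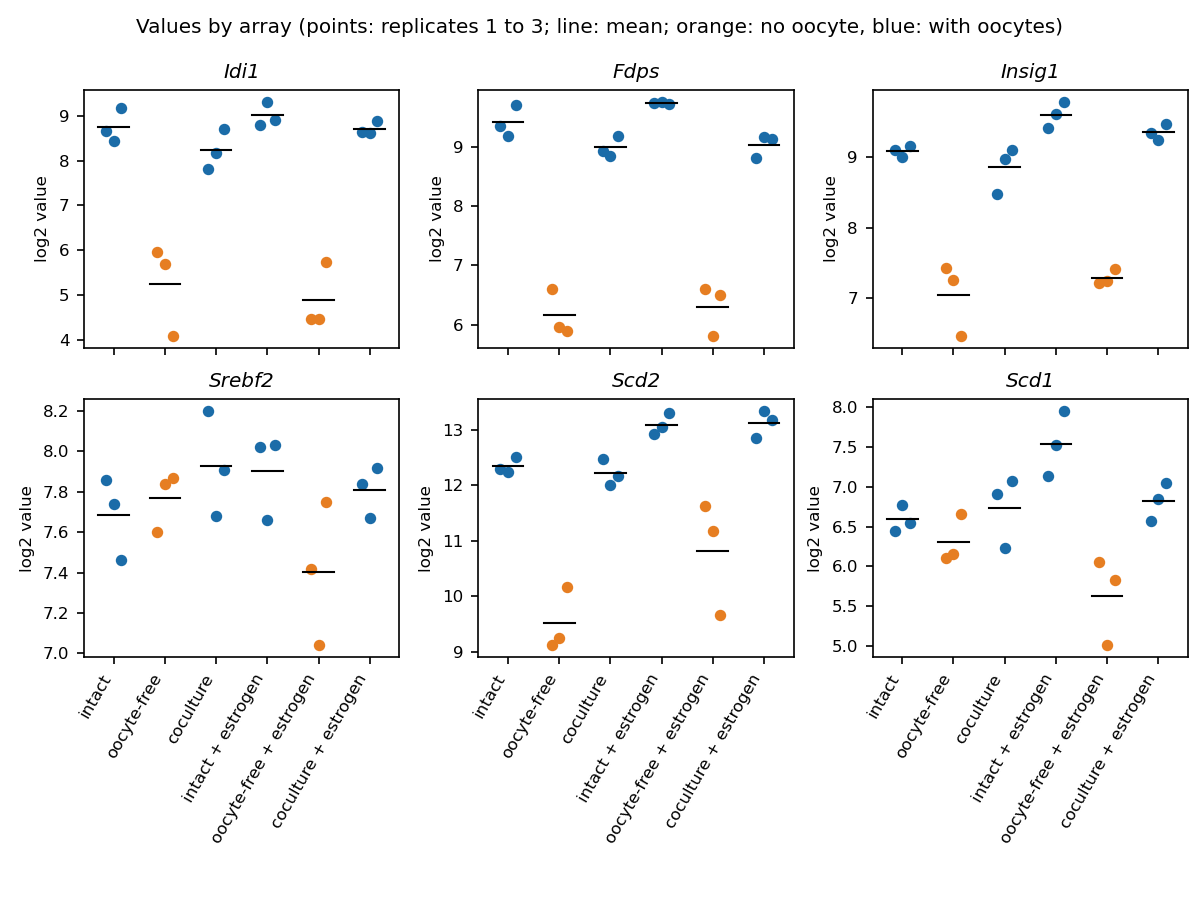
Each point is the log2 value of 1 array and each line the mean of the 3 arrays of a group, for Idi1, Fdps, Insig1, Srebf2, Scd2 and Scd1, with separate vertical axes that do not start at 0; orange marks oocyte-free complexes and blue the groups with oocytes. Idi1, Fdps, Insig1 and Scd2 show 2 low groups, Srebf2 shows overlapping groups within about 1 log2 unit, and Scd1 is highest in intact complexes with estrogen and lowest in oocyte-free complexes with estrogen.

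Cocultures were compared directly with intact complexes to see how far the members differed. Without estrogen 0 of 34 members were called (0.00817% of all tested genes), with 3 members at an unadjusted limma p under 0.05. With estrogen 0 were called (0% of all tested genes), with 9 such members. Of the 12246 tested genes, 732 without and 345 with estrogen had such a p. Arrays of the groups did not overlap in 6 and 11 of 34 members, against 11.5% and 10.4% of all tested genes. The median member differed by -0.15 without and -0.28 with estrogen, and 27 and 29 of 34 differences were below 0. Over all 12246 tested genes the medians were 0.03 and -0.01, with 5417 and 6389 below 0. For the sterol steps the medians were -0.30 and -0.39, with 16 and 17 of 18 below 0. Within array series 1, which leaves out coculture replicate 2 without estrogen, the values without estrogen were -0.069 for the median member, with 22 of 34 below 0, and -0.19 for the sterol steps. Pmvk had the smallest p in both, at 9.66, 9.62 and 9.77 in intact complexes against 9.18, 9.32 and 9.21 in cocultures, and 9.89, 9.72 and 9.59 against 9.28, 9.07 and 8.86 with estrogen. The cocultures lay below the intact complexes in both, by 0.45 and 0.66 in the mean, but limma's adjusted p was 0.582 and 0.470. Under array weights Pmvk, Mvd, Cyp51 and Tm7sf2 were called lower with estrogen. The 95% intervals of the 34 members reached down to -1.39 (Tm7sf2 with estrogen) and up to 0.81 (Hsd17b7 without), so differences of that size were not resolved with 3 arrays per group.

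**Figure D4:**
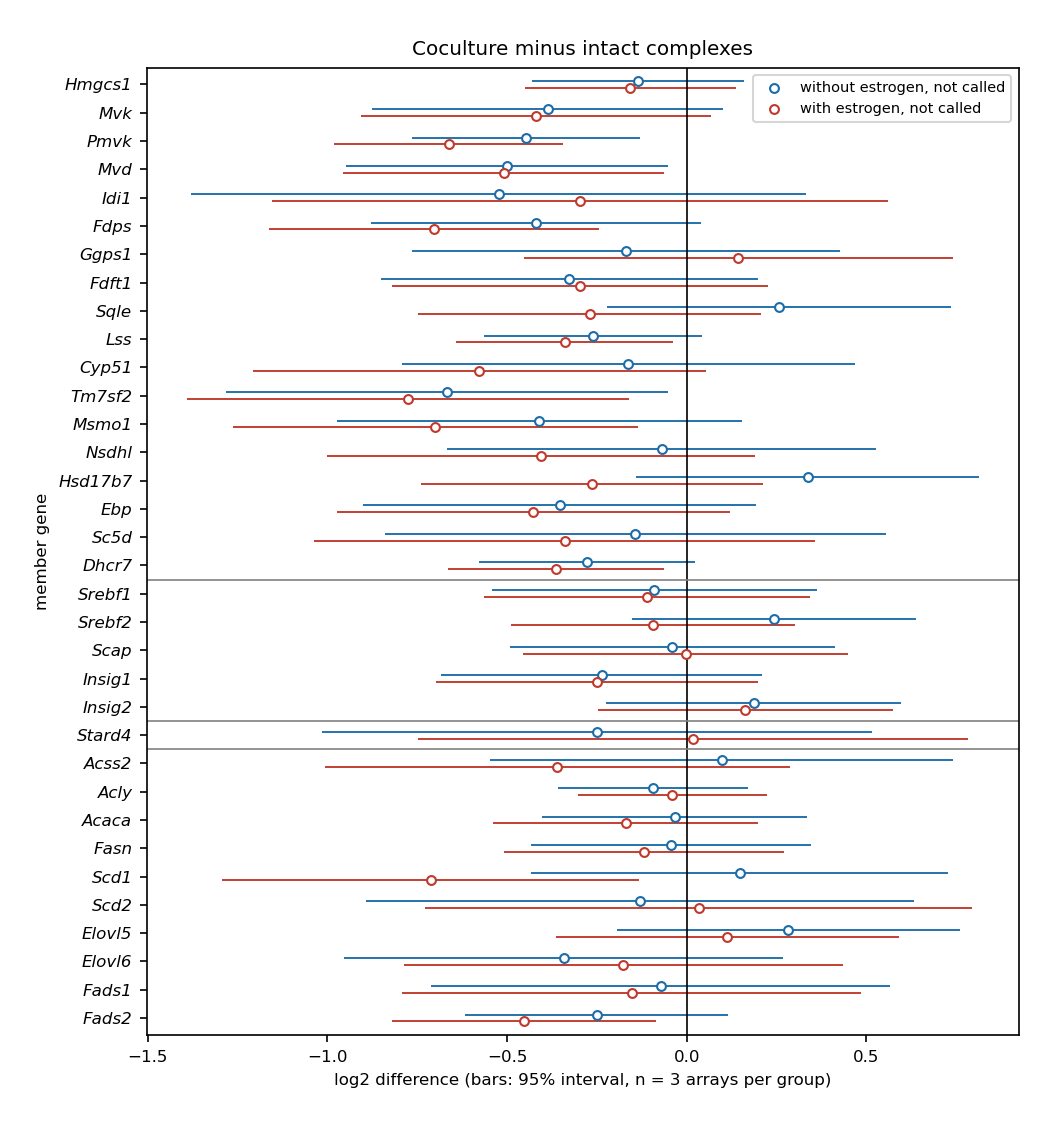
Points are the log2 difference between cocultures and intact complexes for each of the 34 members, without estrogen in blue and with estrogen in red, all open because none was called; bars are 95% intervals of the fit, with 3 arrays per group. Most points of the sterol steps lie left of 0 and most intervals include 0.

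Estrogen was compared in each preparation. In intact complexes 4 of 34 members rose and 0 fell (5.78% of all tested genes called, 3.45% higher and 2.34% lower), although the difference was above 0 in 33 of 34 members and the median was 0.46. In cocultures 3 rose and 0 fell (4.65% called, 2.32% higher and 2.34% lower), with 29 of 34 above 0 and a median of 0.26; within series 1, without coculture replicate 2, 22 of 34 were above 0, with a median of 0.14. In oocyte-free complexes 4 rose and 1 fell (9.64% called, 6.03% higher and 3.62% lower), with 19 above 0 and a median of 0.09. With each array centred on its median, the split over all tested genes went from 422 higher and 286 lower to 322 and 443 in intact complexes, and from 738 and 443 to 647 and 592 in oocyte-free complexes. In intact complexes 6598 of 12246 tested genes were above 0, with a median of 0.03. In cocultures 5945 were, with a median of -0.007, and in oocyte-free complexes 6155, with 0.003. Arrays with and without estrogen did not overlap in 21, 12 and 10 of 34 members, against 33.2%, 23.1% and 22.5% of all tested genes. The counts of called members were small and are not read as a result about the list. They also moved with single arrays: in intact complexes the count was 2 without intact replicate 1, 2 or 3 or without replicate 2 or 3 of the intact complexes with estrogen, and 8 without oocyte-free replicate 3. In cocultures it was 5 without oocyte-free replicate 3. The mean of the granulosa and cumulus markers was also higher with estrogen in each preparation, at 11.31 to 11.51 against 10.76 to 10.91 in intact complexes, and its part was not tested.

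Elovl6 had the largest estrogen difference among the members called. Its values were 8.11, 8.56 and 8.49 in intact complexes without and 9.71, 9.71 and 10.22 with estrogen, and 8.39, 7.47 and 8.27 without and 9.61, 9.51 and 9.99 with estrogen in cocultures. In oocyte-free complexes they were 7.98, 8.10 and 7.68 without and 9.31, 7.98 and 8.74 with estrogen. The groups with and without estrogen were apart where oocytes were present and overlapped where they were not. Elovl6 rose 2.82-fold in intact complexes and 3.16-fold in cocultures (limma adjusted p = 0.00376 and 0.00163) and differed by 0.76 in oocyte-free complexes, where a second probe set gave 1.0 and was called (adjusted p = 0.0177). The differences between these estrogen effects were not called (adjusted p = 0.462 and 0.348).

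Fdft1, squalene synthase, was called in all 3 preparations. Its values were 10.78, 10.64 and 10.93 without and 11.68, 11.49 and 11.91 with estrogen in intact complexes. In oocyte-free complexes they were 9.72, 9.83 and 8.56 without and 10.50, 10.38 and 9.96 with estrogen. In cocultures they were 10.49, 10.37 and 10.51 without and 11.51, 11.26 and 11.42 with estrogen. The groups were apart in each preparation, and oocyte-free replicate 3 without estrogen was the lowest array. Fdft1 rose by 0.91, 0.91 and 0.94 (SE 0.249, limma adjusted p = 0.0383, 0.0275 and 0.0350), and these calls were lost under 10 of 31, 8 of 30 and 9 of 31 other settings. Without oocyte-free replicate 3 and the array with disagreeing labels, its rise in oocyte-free complexes was 0.40 and not called (adjusted p = 0.215).

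Lss, lanosterol synthase, had 8.58, 8.39 and 8.64 without and 9.35, 9.31 and 9.55 with estrogen in intact complexes, and 8.43, 8.20 and 8.20 without and 9.20, 8.94 and 9.05 with it in cocultures. It rose by 0.87 and 0.79 with no overlap (limma adjusted p = 0.000933 and 0.00235), and the call in cocultures was lost under 1 of 31 other settings. Its other probe sets gave 0.28, not called, and 1.09, called, in intact complexes, and 0.10 and 0.59 in cocultures, neither called. In oocyte-free complexes it had 7.20, 7.08 and 6.83 without and 7.61, 7.29 and 7.38 with estrogen, a difference of 0.39 that was not called.

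In oocyte-free complexes the called members were Scd2 (1.30), Sc5d (1.24), Fdft1 (0.91), Msmo1 (0.87) and, lower, Hmgcs1 (-0.47). Sc5d had 6.43, 6.68 and 4.87 without and 7.39, 7.40 and 6.92 with estrogen, so that replicate 3 without estrogen stood far below the others. The Scd2 groups overlapped, with 10.17 the highest value without and 9.66 the lowest with estrogen. None of the 5 was called when the array series was a term, when the array with disagreeing labels was placed with the oocyte-free group without estrogen or left out (replicate 1 of the oocyte-free group with estrogen), or when these 2 groups were fitted alone. The count was 2 without replicate 2 of the oocyte-free group with estrogen or replicate 1 of the group without. It was 3 without replicate 2 of that group, any intact replicate, or replicate 2 or 3 of the intact complexes or cocultures with estrogen. Within array series 3 (1 array against 2), 19 of 34 members were above 0, by a median of 0.07.

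**Figure D5:**
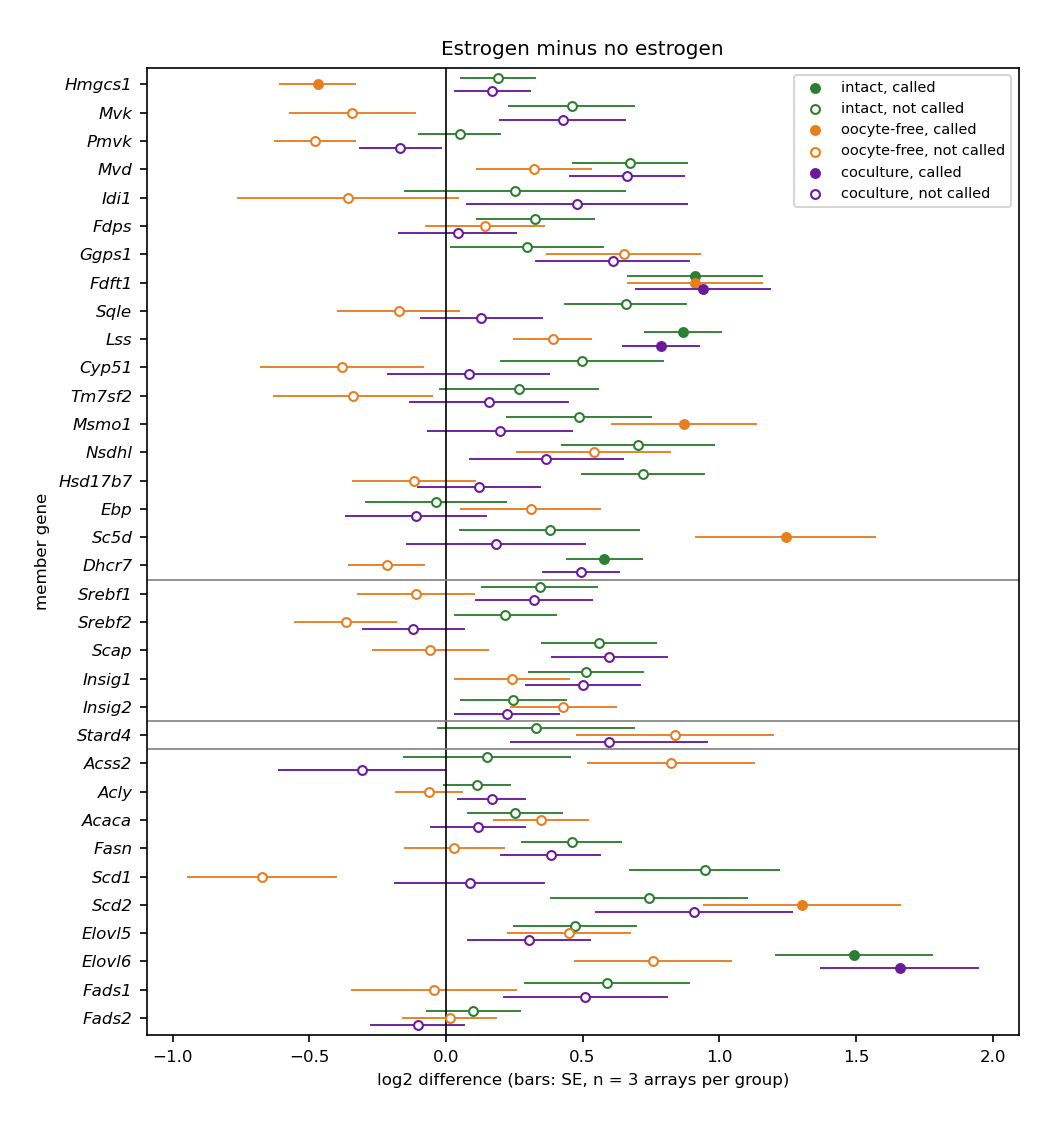
Points are the log2 difference between cultures with and without estrogen for each of the 34 members, in intact complexes (green), oocyte-free complexes (orange) and cocultures (purple), filled where called; bars are the SE of the fit, with 3 arrays per group. Green points lie right of 0 in 33 of 34 members and orange points in 19, and few points in any colour are filled.

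The test of whether estrogen changed the effect of oocyte removal called 2 of 34 members, both lower (3.21% of all tested genes called, 1.79% higher and 1.42% lower). Scd1 had 6.45, 6.77 and 6.55 in intact and 6.11, 6.15 and 6.66 in oocyte-free complexes without estrogen, and 7.14, 7.52 and 7.95 in intact and 6.06, 5.01 and 5.83 in oocyte-free complexes with it. The groups overlapped without estrogen and were more than 1 apart with it. The log2 difference on removal with estrogen minus that without was -1.62 (SE 0.39, limma adjusted p = 0.0264). A second Scd1 probe set gave -0.35 for this difference and was not called (adjusted p = 0.796), and with the mean of both the value was -0.99 (adjusted p = 0.151).

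Dhcr7, a reductase of the last sterol steps, had 8.34, 8.40 and 8.42 in intact and 6.72, 6.68 and 6.51 in oocyte-free complexes without estrogen, and 8.94, 8.93 and 9.03 in intact and 6.35, 6.57 and 6.34 in oocyte-free complexes with it. Its groups were apart in both. Dhcr7 rose by 0.58 with estrogen in intact complexes (limma adjusted p = 0.0202), a call lost under 8 of 31 other settings. The interaction was -0.80 (SE 0.201, limma adjusted p = 0.0362), a call lost under 16 of 30 other settings, where adjusted p ranged from 0.00491 to 0.255. The count of 2 members was 0 without intact replicate 1 or 3 or without replicate 2 or 3 of the intact complexes with estrogen. It was 1 without intact replicate 2, replicate 1 or 2 of either oocyte-free group, or replicate 3 of the cocultures with estrogen, and 4 without replicate 3 of either oocyte-free group. For added oocytes the interaction called 0 of 34 members (2.78% of all tested genes, 0.890% higher and 1.89% lower). At an unadjusted limma p under 0.05 were 7 of 34 members and 1625 of 12246 tested genes. The count of called members was 1 without replicate 3 of the cocultures without estrogen or of the oocyte-free group with estrogen. It was 3 without oocyte-free replicate 3 without estrogen.

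Genes that stand beside these pathways were taken from lists set by function. Of 9 genes of SREBP processing, 1 rose on oocyte removal without estrogen, the ubiquitin ligase gene Rnf139 (0.76), and 0 fell; with estrogen 0 of 9 were called. Of 7 genes of sterol sensing and liver X receptor targets, 4 rose and 1 fell without estrogen and 3 rose and 1 fell with it. The list includes the nuclear receptor genes Nr1h3, Rxra and Rxrb. Without estrogen the mean of Rxra was 8.35 in intact and 8.87 in oocyte-free complexes, and that of Rxrb 10.25 and 10.93. The mean of Abca1 was 6.17 and 6.40, with an SD of 1.06 in oocyte-free complexes. Mylip, a ubiquitin ligase that limits uptake of lipoproteins, rose by 2.26 and 2.32, and the sterol exporter gene Abcg1 by 1.09 and 0.60. Lpcat3, which remodels phospholipids, fell by 0.96 and by 0.83. On addition of oocytes Mylip changed by -1.59 and -1.91.

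Of 8 genes that use isoprenoids outside sterols, 2 rose and 2 fell without estrogen. Dhdds, of dolichol synthesis, changed by -1.09 and Coq2, of coenzyme Q synthesis, by -0.55, whereas the prenyltransferase subunits Pggt1b and Fnta rose by 0.63 and 0.53. With estrogen 0 rose and 2 fell. Of 17 further fatty acid and lipid genes, 4 rose and 6 fell without and 1 rose and 5 fell with estrogen. Dgat2, which makes triglyceride, fell by 2.46 and by 2.94 and rose by 2.36 and 2.82 with added oocytes. Tecr, a reductase of fatty acid elongation, fell by 1.26 without estrogen, while the acyl-CoA synthetase gene Acsl4 rose by 1.23 and Mlxipl, a glucose-sensing regulator of lipid synthesis, by 1.31. Of 9 genes listed under fatty acid oxidation, which include nuclear receptor genes, the enzyme gene Hadhb rose by 0.59 without estrogen. The receptor gene Pparg fell by 2.09 there and was the only one called with estrogen. No oxidation enzyme gene was called lower in either removal. Beside these counts stand the 38.7% and 30.2% of all tested genes called in the same comparisons.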

How the data were processed

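The study measured messenger RNA of cultured mouse cumulus cells on 18 Affymetrix arrays in 6 groups of 3. The deposited values are log2 expression per probe set, which the authors computed by RMA; the submitters' processing notes name Affymetrix Expression Console 1.1. RMA sets the probe intensities of all arrays to 1 distribution, so a shift of all genes cannot be told from these values. The resulting values per probe set still differed between arrays, with medians of 5.51 to 5.71. The genome build behind the array annotation was not given in the sources used here. Scanner images were not used here. No read depth exists for arrays; their number, 3 per group, limits the precision.

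Probe sets were named from the platform annotation where it gave 1 symbol (34945 of 45101; 932 had several and 9160 none, and 64 controls were left out), with symbols updated by RefSeq. The brightest probe set by mean level stood for each gene, and genes above the array median on at least 3 arrays were kept (12246 of 18193). Group means were fitted over all 18 arrays by lmFit and eBayes of limma 3.58.1 (R 4.3.3), with 11 comparisons. P-values were adjusted by Benjamini-Hochberg over all tested genes and called under 0.05. The steps were tested on simulated data.

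Groups were taken from the sample titles. The members and lists were chosen with earlier results of these data known. Values in every array are given for the 3 members per role with the largest difference on oocyte removal without estrogen, all SREBP regulators and up to 4 members called per estrogen comparison or interaction; other pathway genes are named for up to 2 called genes per list and direction. The genes Pmvk, Cyp51, Mvd and Tm7sf2 are also named in the coculture comparison, as their values were seen.

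Sets of title numbers (replicate 1, 2 and 3 in every group) were checked as pairs by the correlation of deviations from group means. Among the groups compared, these correlations were all above 0.1 only between cocultures and intact complexes with estrogen (0.165, 0.294 and 0.309), where the block left 0 members called.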

Additional observations from a re-analysis of the deposited data

Results flagged for a closer look

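Among the 34 members and the other pathway genes, the test of whether estrogen changed the effect of oocyte removal passed the threshold of limma's adjusted p for 3, as it did for 393 of all tested genes. For Scd1 the interaction was -1.62 on the log2 scale, from a difference on removal of -0.28 without and -1.90 with estrogen. For Dhcr7 it was -0.80, from -1.75 and -2.55. For Mlxipl, a regulator of lipid synthesis outside the list, it was -1.07 (adjusted p = 0.0249), from group means of 5.24 in intact and 6.55 in oocyte-free complexes without estrogen and 6.05 and 6.29 with it. Its intact arrays without estrogen ran from 4.88 to 5.53, within or below the range of array medians (5.51 to 5.71). The Mlxipl call was not checked under other settings.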

How the results depend on the processing

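Leaving out each array in turn gave 22 to 23 members lower on oocyte removal without estrogen, 23 to 29 with it, 22 to 23 higher with added oocytes without estrogen and 22 to 25 with it. The same gave 0 to 0 for cocultures against intact complexes in both, 2 to 8 for estrogen in intact, 0 to 7 in oocyte-free complexes, 2 to 5 in cocultures, 0 to 4 for the interaction with removal and 0 to 3 with added oocytes. Other settings kept both removals and both additions at 22 to 30 members called. Array weights called 4 members in cocultures against intact complexes with estrogen, 17 for estrogen in intact and 14 in oocyte-free complexes, 10 in cocultures, 10 for the interaction with removal and 7 with added oocytes. For estrogen in intact complexes, the series as a term called 9, series 1 alone 13 and the groups alone 11. In oocyte-free complexes the series as a term, the groups alone and moving the array with disagreeing labels called 0 each. The mean of all probe sets, median centring and moving that array called 1 each for the interaction with removal, and the mean of probe sets and the series as a term called 1 each with added oocytes. Leaving out oocyte-free replicate 3 and the array with disagreeing labels together, chosen after seeing the data, called 8 in intact complexes, 5 in cocultures, 3 for the interaction with removal and 2 with added oocytes. With the replicate block, 23, 27, 22 and 23 members were called on both removals and both additions, 3 for estrogen in oocyte-free complexes and 1 for the interaction with removal. The title numbers did not pair the samples in those comparisons, and the block changed no other count by over 1.5 times. The cause of these changes was not tested. No called difference changed sign. Fits of every member probe set split the call within 6 of 22 genes on removal without estrogen and 4 with it, 8 and 6 with added oocytes, 2, 6 and 1 for estrogen in intact complexes, oocyte-free complexes and cocultures and 1 for the interaction with removal, and called no gene both ways. Centring or a second normalization moved the median of all tested genes most for estrogen in intact complexes (0.03 to -0.085) and added oocytes without estrogen (0.02 to -0.09), both on centring. A second normalization turned the split of higher to lower genes to 379 and 395 in the former and 2144 and 2270 in the latter. On these arrays, differences near 0.5 in log2 were often not resolved with 3 arrays per group.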
